A study of Mus musculus with 22 samples.

Results

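The hnRNP A, B and D family comprises 7 genes here: Hnrnpa0, Hnrnpa1, Hnrnpa2b1, Hnrnpa3, Hnrnpab, Hnrnpd and Hnrnpdl. They were examined in hnRNP A1 CLIPseq of mouse spinal cord, a method that crosslinks protein to RNA with UV light and sequences the RNA recovered with an antibody to hnRNP A1. A footprint was assigned to a member when it overlapped the gene's annotated GRCm38 span by at least 1 nt. By this rule the members held 118 of the 136207 footprints of 10 mice, and they are 7 of the 13948 genes footprinted in at least 1 mouse.

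All mice were female wild-type C57Bl/6, and each gave 1 immunoprecipitation library that was treated as 1 replicate. Experimental autoimmune encephalomyelitis (EAE) was induced with MOG(35-55) peptide in complete Freund's adjuvant together with 100 ng of pertussis toxin, at 12 weeks of age by the protocol and at 8 weeks by the series' design text, and the cords were collected 15 days after onset. The labelled clinical scores divide the immunised mice into a mild group of 3 (mice 3, 4 and 7, scoring 1 to 1.5) and a severe group of 4 (mice 1, 2, 5 and 6, scoring 2.5 to 3), to be set against 3 age-matched naïve mice. Numbers are those of the labelled mouse identifiers, so a naïve and an EAE mouse of the same number are different animals. EAE is an inflammatory model of multiple sclerosis whose course varies between identically treated mice.

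The lists differed in length before any gene was considered. Naïve mice had 17119 to 17494 footprints, mild EAE mice 9751 to 24433, and severe EAE mice 209 to 31870. The lists of severe EAE mice 1, 2 and 6 were short (2670, 209 and 673 footprints), whereas that of severe EAE mouse 5 was the longest of all 10. The covered nt of the severe group below come mainly from mouse 5. The study describes mouse 5 as the outlier of the severe group, which had been in remission shortly before the end, and its reproducibility analysis flagged it. Settings below that leave out mice 1, 2 and 6 keep mouse 5 as the only severe EAE mouse. The tissue label was checked with marker genes: all 7 neuronal and all 5 oligodendrocyte markers were footprinted in at least 1 mouse of each group, and 4 of 5 astrocyte markers in the naïve and mild EAE groups. Of 7 microglia and leukocyte markers, none was footprinted in a naïve mouse, 5 were in mild EAE and 4 in severe EAE.

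The members are closely related RNA-binding proteins of the nucleus and cytoplasm. Each carries a pair of RNA recognition motifs followed by a glycine-rich tail, and together they act on splicing, export, stability and translation of messenger RNAs. hnRNP proteins are known to bind transcripts of their own family, including their own, and hnRNP A1 is known for binding to UAG-containing RNA. Hnrnpa1 encodes the immunoprecipitated protein itself. Hnrnpa2b1 encodes its nearest relative, a splicing and RNA transport factor, and Hnrnpa3 and Hnrnpa0 encode the other A-type proteins. Hnrnpd encodes AUF1, which binds AU-rich elements and controls mRNA decay, Hnrnpdl encodes its close homologue, and Hnrnpab encodes CBF-A, which takes part in mRNA transport. In GRCm38, Hnrnpa1 lies at chr15:103240432-103246692 and Hnrnpa3 at chr2:75659261-75669407, both on the plus strand. The others are on the minus strand, with Hnrnpa2b1 at chr6:51460932-51469894, Hnrnpa0 at chr13:58125879-58128556, Hnrnpab at chr11:51600100-51606847, Hnrnpd at chr5:99955935-99978938 and its neighbour Hnrnpdl at chr5:100033577-100039664.

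The sequences that recurred between mice are shown first, because they carry most of what follows. Each is a stretch covered in at least 2 mice of the named group, read from GRCm38 on the gene's strand and written as RNA from 5′ to 3′. Capitals mark UAG, AGGU or UAGGG. In naïve cord, the stretches of Hnrnpa2b1 in exons 2, 3 and 5 were common to all 3 mice, and that in exon 8 covered the whole of a cassette exon, an exon that some protein-coding transcripts of the gene skip.
Hnrnpa2b1 exon 2, chr6:51467185-51467255, minus strand: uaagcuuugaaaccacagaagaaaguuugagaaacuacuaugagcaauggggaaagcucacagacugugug
Hnrnpa2b1 exon 3, chr6:51466993-51467052, minus strand: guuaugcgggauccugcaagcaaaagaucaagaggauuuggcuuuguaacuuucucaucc
Hnrnpa2b1 exon 5, chr6:51466303-51466378, minus strand: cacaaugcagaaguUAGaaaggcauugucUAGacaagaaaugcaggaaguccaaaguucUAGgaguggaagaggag
Hnrnpa2b1 exon 8, chr6:51464428-51464547, minus strand: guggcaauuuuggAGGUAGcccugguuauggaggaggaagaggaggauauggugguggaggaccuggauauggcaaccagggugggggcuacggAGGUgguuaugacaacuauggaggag

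In mild EAE, recurrent stretches lay in Hnrnpa1, Hnrnpab, Hnrnpd and Hnrnpdl, the last of which also had 2 in naïve cord. Exon 6 of Hnrnpa1 was covered end to end, exons 5 and 6 of Hnrnpab and exon 8 of Hnrnpd were covered in all 3 mice, and exons 1 and 5 of Hnrnpdl recurred in both naïve and mild EAE cord, of which exon 5 is printed.
Hnrnpa1 exon 5, chr15:103242266-103242298, plus strand: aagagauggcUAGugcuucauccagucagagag
Hnrnpa1 exon 6, chr15:103242380-103242472, plus strand: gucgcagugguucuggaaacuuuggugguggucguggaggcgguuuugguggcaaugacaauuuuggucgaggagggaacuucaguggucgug
Hnrnpab exon 5, chr11:51604400-51604465, minus strand: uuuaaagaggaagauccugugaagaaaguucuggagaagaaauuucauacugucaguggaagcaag
Hnrnpab exon 6, chr11:51602613-51602695, minus strand: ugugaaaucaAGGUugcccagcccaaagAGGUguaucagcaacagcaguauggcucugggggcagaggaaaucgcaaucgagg
Hnrnpd exon 6, chr5:99963984-99964074, minus strand: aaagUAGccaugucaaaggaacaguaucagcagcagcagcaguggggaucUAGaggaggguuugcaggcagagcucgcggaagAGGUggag
Hnrnpd exon 8, chr5:99962559-99962612, minus strand: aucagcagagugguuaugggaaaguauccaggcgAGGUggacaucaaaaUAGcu
Hnrnpdl exon 5, chr5:100036862-100036971, minus strand: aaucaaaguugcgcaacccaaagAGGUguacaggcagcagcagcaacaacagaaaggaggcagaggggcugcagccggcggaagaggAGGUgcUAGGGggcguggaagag

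The only member stretch shared within severe EAE was a short one in exon 4 of Hnrnpa1, present in mice 1 and 5.
Hnrnpa1 exon 4, chr15:103241903-103241925, plus strand: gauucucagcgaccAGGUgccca

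Among these are 3 exons that resemble each other. Exon 6 of Hnrnpab aligned to exon 5 of Hnrnpdl over 94 nt with 73.4% identity, exon 6 of Hnrnpd aligned to exon 5 of Hnrnpdl over 89 nt with 77.5% identity, and exon 6 of Hnrnpab aligned to exon 6 of Hnrnpd over 97 nt with 73.2% identity. The printed stretch of Hnrnpab matched that of Hnrnpdl over 42 nt at 90.5% identity. The resembling exon was thus footprinted in each of the 3 genes, in 3 mice for Hnrnpab, 3 for Hnrnpd and 5 for Hnrnpdl.

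The first comparison asks how much of each member transcript hnRNP A1 occupied in each mouse, measured as covered nucleotides (nt), the length of the gene span lying under footprints. The 7 genes together had 1183, 573 and 1726 covered nt in naïve mice 1, 2 and 3, 1690, 1267 and 2005 in the mild EAE animals 3, 4 and 7, and finally 23, 0, 2460 and 90 in the severe EAE animals 1, 2, 5 and 6. Mild EAE overlapped the naïve range, and the severe group was split between mouse 5, the highest of the 10, and 3 mice under 100 nt. Divided by the total covered length of each list, the members took 279 to 789 nt per 1000000 covered nt in naïve, 671 to 1096 in mild EAE and 0 to 1184 in severe EAE, where the 1184 came from the single 90 nt footprint of mouse 6. In whole cord, fewer cells that carry a transcript, less of that transcript per cell and less binding cannot be told apart. For Hnrnpa2b1, the study reports by qPCR a lower transcript abundance in EAE than in naïve cord. Its part in the covered nt was not tested. The deposited lists hold no read counts, so how many reads stand behind a footprint is not known, and a gene with 0 covered nt is one where no footprint was retained.

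**Figure D1:**
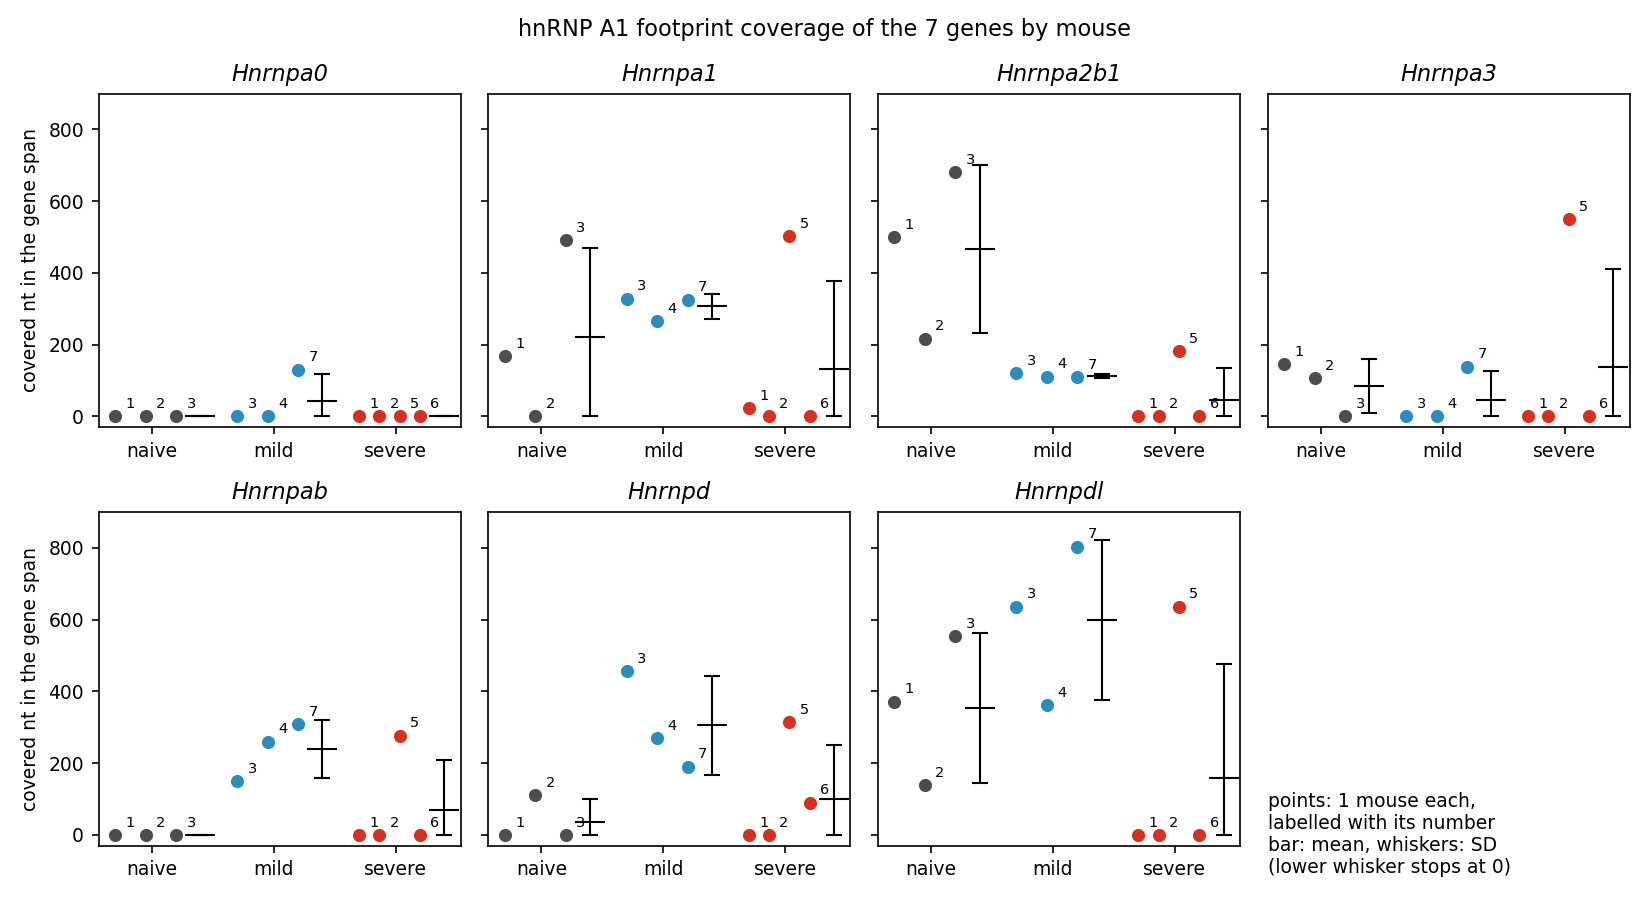
Covered nt (vertical axis) in the span of each of the 7 genes for 3 naïve, 3 mild EAE and 4 severe EAE mice, 1 point per mouse labelled with its number, with the group mean and SD beside the points. Hnrnpa2b1 was highest in the 3 naïve mice (217 to 681 nt), Hnrnpab had 0 nt in all of them, and most of the severe EAE points at 0 are mice 1, 2 and 6.

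Among the A-type genes, Hnrnpa2b1 was the member whose naïve and EAE mice did not overlap. Its covered nt were 499, 217 and 681 in naïve mice 1, 2 and 3, 120, 111 and 110 in the mild EAE animals 3, 4 and 7, and 0, 0, 181 and 0 in the severe EAE animals 1, 2, 5 and 6. All 3 naïve mice lay above all 7 EAE mice, an order found in 134 of the 9195 genes tested, with the reverse order in 1. The naïve mean was 466 ± 234 nt (SD, n = 3) and the EAE mean 74.6 ± 73.8 nt (SD, n = 7), a difference of -391 nt with an unadjusted p of 0.00833 by the two-sided exact permutation test, the smallest that 3 mice against 7 can give. After Benjamini-Hochberg adjustment over the 9195 genes footprinted in at least 2 mice, the exact permutation p was 0.613, and no gene passed in any of the 4 comparisons, of which those against naïve share the same 3 control mice. Unadjusted exact p-values under 0.05 were found for 416 genes in EAE against naïve, 232 in severe EAE against naïve, 0 in mild EAE against naïve and 124 in severe against mild EAE. On EAE against naïve, limma and Fisher's exact test also gave 0 genes after adjustment, and 726 and 162 before it. Each exact permutation p is the share of all splits of these mice whose absolute difference was at least as large as that observed. Without adjustment, 4.51% of all genes tested were lower in EAE at an exact p under 0.05 and 0.0109% were higher, and of the 6 members tested Hnrnpa2b1 was the only one in the first class and none was in the second.

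The lower values of Hnrnpa2b1 were seen in each EAE group. Against severe EAE the difference was -420 nt with an exact permutation p of 0.0286 and an adjusted p of 0.883. Lower values in severe EAE at an unadjusted exact p under 0.05 were found in 2.51% of all genes, higher values in 0.0109%, and in 3.46% of genes every severe EAE mouse lay below every naïve mouse. Hnrnpa2b1 was the only member in the first and the last of these classes, and no member was higher. Against mild EAE the difference was -352 nt with an exact permutation p of 0.1, the lowest that 3 mice against 3 allow, and Hnrnpa2b1 was the only member among the 3.85% of genes in which every mild EAE mouse lay below every naïve mouse. Because the severe lists were short, the share of each list was also taken. Hnrnpa2b1 accounted for 225, 106 and 311 nt per 1000000 covered nt in naïve mice 1, 2 and 3, 77.5, 96.0 and 36.8 in the mild EAE animals 3, 4 and 7, and 43.7 in severe EAE mouse 5, and 0 in the other severe EAE mice, so the naïve mice lay above every EAE mouse on this scale too. A value of 0 stays 0 as a share, and the lists of severe EAE mice 1, 2 and 6 held only 330163, 24359 and 75994 covered nt. For these mice the share therefore does not correct for list length. Without severe EAE mice 1, 2 and 6 the difference between EAE and naïve was -335 nt (exact permutation p 0.0286, adjusted 0.865).

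The position of the footprints within Hnrnpa2b1 also differed between animals. Exons 2, 3 and 5 were footprinted in each naïve mouse. Exon 5 had 93, 76 and 64 covered nt in naïve mice 1, 2 and 3 and 0 in all 7 EAE mice. Exon 9 had 123 nt in naïve mouse 1 and 115 nt in naïve mouse 3 and none elsewhere. The cassette exon 8, of 120 nt, was covered from its first to its last base in naïve mice 1 and 3, in mild EAE mouse 3 and in severe EAE mouse 5, and it was the longest stretch of the gene present in all 3 groups. Mild EAE mouse 4 carried footprints in exons 2 and 3 only, and that of mild EAE mouse 7 lay in exon 1. The alternative exons 6, 7 and 11 had no footprint in any mouse.

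Hnrnpa1, the transcript of the immunoprecipitated protein, was footprinted in 2 naïve, 3 mild and 2 severe EAE mice. Its covered nt were 168, 0 and 492 in naïve mice 1, 2 and 3, 328, 266 and 325 in the mild EAE animals 3, 4 and 7, and 23, 0, 502 and 0 in the severe EAE animals 1, 2, 5 and 6. The mild EAE mice were close together and fell inside the naïve range, and the exact permutation p for EAE minus naïve was 0.958, with a difference of -13.7 nt that became 135 nt without severe EAE mice 1, 2 and 6. What differed was the place assigned to the footprints. Exons 5 and 6 were footprinted in all 3 mild EAE mice and in severe EAE mouse 5 and in no naïve mouse. Exon 6, of 93 nt, had 93, 93 and 87 nt in mild EAE mice 3, 4 and 7 and 42 nt in severe EAE mouse 5. The naïve footprints lay instead in exons 7 and 9 of mouse 1 and in exons 2, 4, 10 and 11 of mouse 3, and 1 further footprint of mouse 3, of 196 nt, lay beyond the protein-coding transcripts in an exon annotated only in other transcripts. In exon 4 the footprint started at the same base in 5 mice: naïve mouse 3, mild EAE mice 3 and 7, and severe EAE mice 1 and 5. The cassette exon 8 had no footprint, and the cassette exon 9 had 149 nt in naïve mouse 1 and 125 nt in mild EAE mouse 7. Exon 5 of Hnrnpa2b1 aligned to exon 5 of Hnrnpa1 over 65 nt at 76.9% identity. This exon was footprinted in 3 mice for Hnrnpa2b1 and 4 mice for Hnrnpa1, with 0 mice in both. Exons 2, 4 and 9 also aligned between these genes, and each of these pairs had 1 mouse footprinted in both. In exons 3 and 8, which aligned as well, Hnrnpa1 had no footprint. The exon positions were compared after the values were seen and were not tested. Every Hnrnpa1 footprint searched in exons 5 and 6 had identical sequence elsewhere in the genome. The Hnrnpa1 pseudogene Gm10052, aligned over 752 nt at 100% identity, was footprinted in all 3 naïve mice. Whether naïve contigs of these exons were placed on such copies was not tested.

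**Figure D2:**
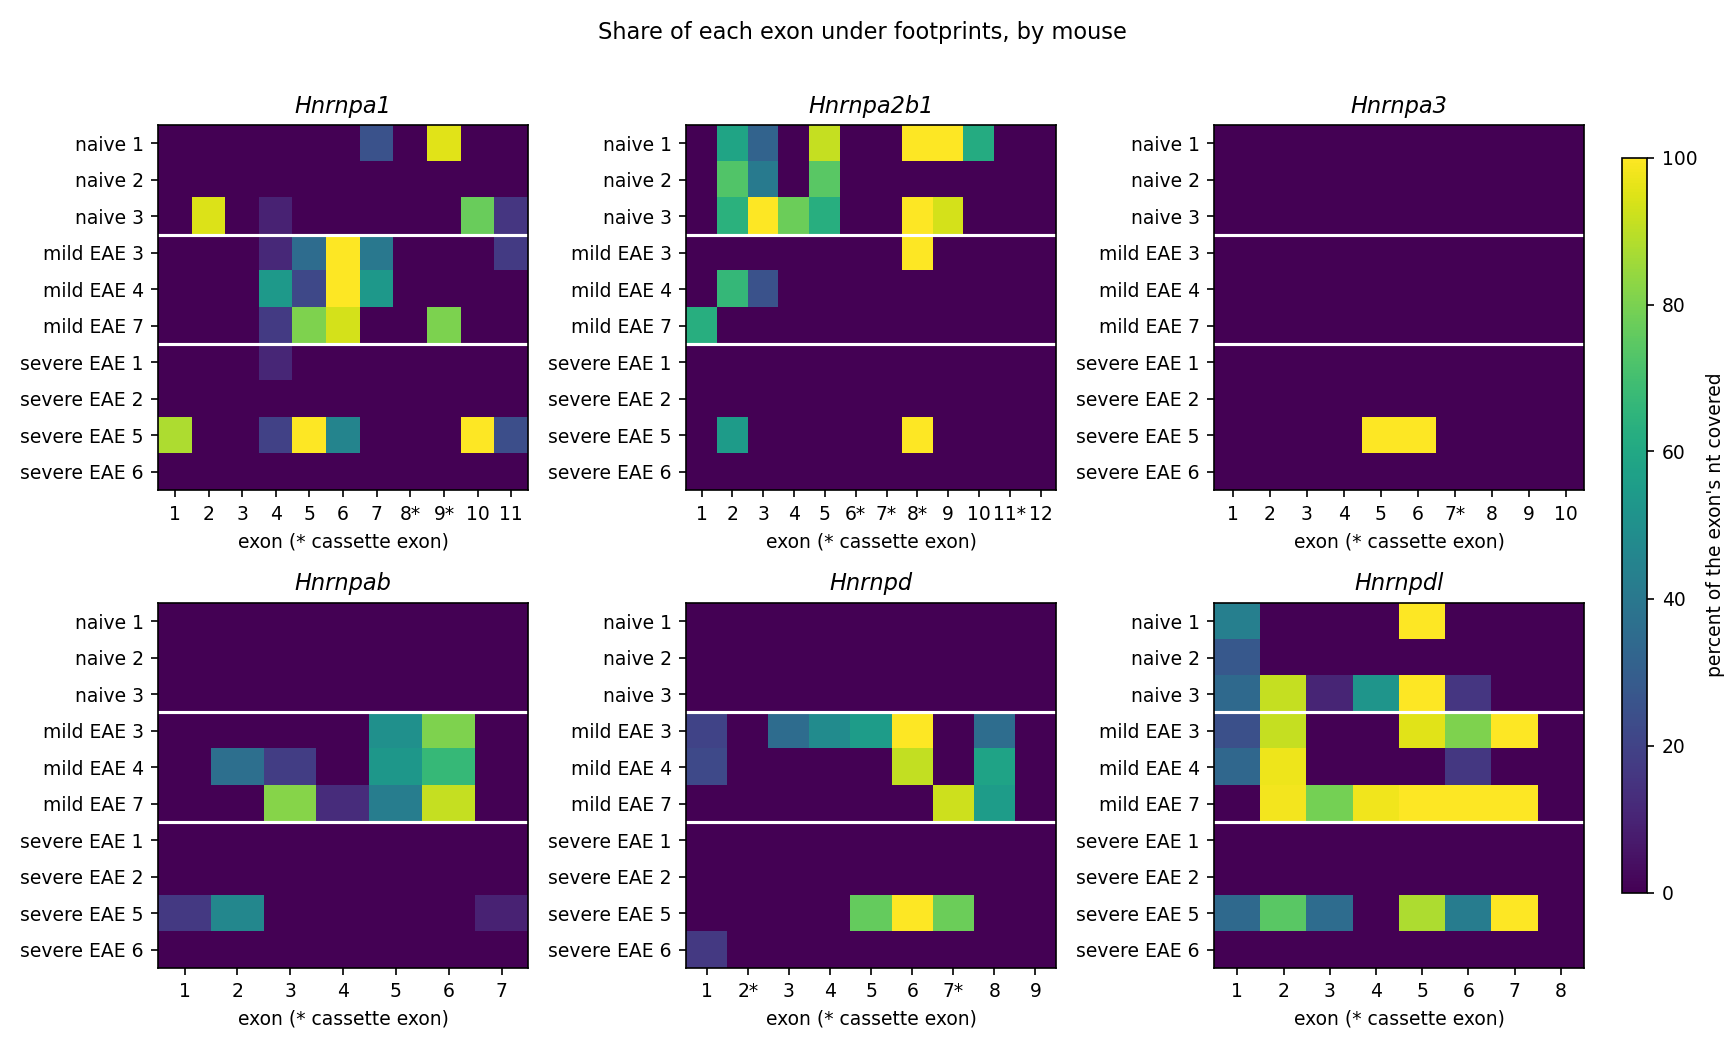
Percent of each exon's nt under footprints (colour, 0 to 100) for the exons of the reference transcript (horizontal axis, cassette exons starred) in the 10 mice (rows, white lines between groups), for the 6 members footprinted in at least 2 mice. Exon 5 of Hnrnpa2b1 was covered in the 3 naïve mice alone, and exons 5 and 6 of Hnrnpa1 in 4 EAE mice alone. The Hnrnpa1 footprints searched in these exons have identical sequence elsewhere in the genome.

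Hnrnpa3 and Hnrnpa0 had few footprints. Hnrnpa3 had 145, 107 and 0 covered nt in naïve mice 1, 2 and 3, 139 nt in mild EAE mouse 7 and 0 in the other mild EAE mice, and 549 nt in severe EAE mouse 5 and 0 in the other severe EAE mice. The groups overlapped, with an exact permutation p of 0.95 for EAE minus naïve. Of its 7 footprints, 5 had their midpoint in the 3′ UTR of a protein-coding transcript, and those of naïve mouse 1 (chr2:75667607-75667751) and mild EAE mouse 7 (chr2:75667607-75667745) began at the same base. The only coding footprints, over exons 5 and 6, came from severe EAE mouse 5. Hnrnpa0, a gene of 1 exon, had a single footprint of 130 nt in mild EAE mouse 7 and was therefore not tested.

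In the AB and D type, Hnrnpab and Hnrnpd had more covered nt in every mild EAE mouse than in any naïve mouse, an order that 3 mice against 3 cannot bring past the threshold. Hnrnpab had 0 covered nt in each naïve mouse, 149, 260 and 308 in the mild EAE animals 3, 4 and 7, and 0, 0, 277 and 0 in the severe EAE animals 1, 2, 5 and 6. Every mild EAE mouse was footprinted and no naïve mouse was, a pattern found in 1.59% of the genes tested. Hnrnpd had 0, 111 and 0 covered nt in naïve mice 1, 2 and 3, 457, 269 and 190 in the mild EAE animals 3, 4 and 7, and 0, 0, 315 and 90 in the severe EAE animals 1, 2, 5 and 6. The mild EAE mice again lay above all naïve mice, and Hnrnpab and Hnrnpd were the 2 members among the 3.84% of genes with this order. The exact permutation p was 0.1 for both genes in mild EAE against naïve, with differences of 239 and 268 nt, and 0.2 and 0.242 for all EAE mice against naïve. Without severe EAE mice 1, 2 and 6 the differences were 249 and 271 nt, with exact permutation p-values of 0.0286 and 0.0571 (adjusted 0.865 for both). On the naïve side, the 1 Hnrnpd footprint was also of another kind, since it was the only intronic footprint of the family.

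Markers of immune cells moved in the same direction as Hnrnpab. The 7 microglia and leukocyte markers summed to 0 covered nt in all 3 naïve mice, 2329, 1038 and 1929 nt in the mild EAE animals 3, 4 and 7, and 258, 0, 2937 and 149 nt in the severe EAE animals 1, 2, 5 and 6. The markers Aif1 and Cd3e had 0 nt in all 10 mice. Their part in the values of Hnrnpab and Hnrnpd was not tested.

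Within Hnrnpab, exons 5 and 6 were footprinted in all 3 mild EAE mice. Exon 6 had 83, 69 and 94 nt in mice 3, 4 and 7, and exon 5 had 66, 70 and 56 nt. In each of them the footprint ended exactly at the exon edge. Severe EAE mouse 5 had its Hnrnpab footprints in exons 1, 2 and 7 and none in exons 5 or 6. The 3′ part of Hnrnpab overlaps Phykpl, a gene of the opposite strand, and the lists carry no strand. The exon 5 footprints lay wholly within annotated exons of Phykpl as well, so overlap alone does not assign them to 1 gene. Those of exon 6 had 0 nt in Phykpl exons. In all 3 mild EAE mice the exon 5 footprint began at base 51604400 and the exon 6 footprint ended at base 51602695. These are the facing edges of Hnrnpab exons 5 and 6, where a spliced Hnrnpab contig would be divided. Whether each pair came from 1 contig was not tested. With only footprints that overlap no other gene, the Hnrnpab difference between EAE and naïve fell from 142 to 60.4 nt (exact permutation p 0.475). That limit also dropped the exon 6 footprints, which lie in the span of Phykpl but outside its exons.

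Within Hnrnpd, exon 8 was footprinted in all 3 mild EAE mice with 35, 57 and 54 nt. Exon 6, of 100 nt, was covered whole in mild EAE mouse 3 and severe EAE mouse 5 and over 91 nt in mild EAE mouse 4. The cassette exon 7, of 147 nt, which is included in longer AUF1 isoforms, had 136 nt in mild EAE mouse 7 and 114 nt in severe EAE mouse 5, and the cassette exon 2 had none in any mouse. Severe EAE mouse 6, whose whole list held 673 footprints, kept 1 footprint of 90 nt in exon 1. Exon 1 lies opposite to the antisense gene Gm17092, which overlapped 3 of the 16 Hnrnpd footprints.

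Hnrnpdl had the most footprints of the family, 33, and all of them had a coding midpoint. Its covered nt were 371, 138 and 553 in naïve mice 1, 2 and 3, 636, 361 and 803 in the mild EAE animals 3, 4 and 7, and 0, 0, 636 and 0 in the severe EAE animals 1, 2, 5 and 6. The naïve and mild EAE ranges overlapped, with an exact permutation p of 0.3 for their difference of 246 nt and 0.992 for all EAE mice against naïve. Without severe EAE mice 1, 2 and 6 the latter difference turned from -6 to 255 nt (exact permutation p 0.171). Exon 1 was footprinted in 6 mice and exons 2, 5 and 6 in 5 mice each, which made Hnrnpdl the member with the most exons in common between groups. Exon 5 was covered in naïve mice 1 and 3, mild EAE mice 3 and 7, and severe EAE mouse 5. Exon 7, of 92 nt, was covered end to end in mild EAE mice 3 and 7 and severe EAE mouse 5, and in no naïve mouse. Exon 8, the last, had no footprint.

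By group, 5 of the 6 members tested were footprinted in all 3 mild EAE mice (Hnrnpa1, Hnrnpa2b1, Hnrnpab, Hnrnpd and Hnrnpdl), against 23.4% of all genes tested. In all 3 naïve mice 2 members were footprinted, Hnrnpa2b1 and Hnrnpdl, against 25.3% of genes, and in at least 2 severe EAE mice also 2, Hnrnpa1 and Hnrnpd, against 16.9%. Genes were tested only if footprinted in at least 2 mice, which Hnrnpa0 was not. For severe EAE minus mild EAE, no member had an unadjusted exact p under 0.05, against 0% of genes higher and 1.35% lower. On the share scale, a comparison added after the data were seen, Hnrnpab and Hnrnpdl were lower in severe than in mild EAE by the unadjusted exact permutation test (p 0.0286, the smallest that 4 mice against 3 can give, and 0.633 after adjustment). Severe EAE mice 1, 2 and 6 had 0 nt in both genes, on lists of only 330163, 24359 and 75994 covered nt. Short lists and lower coverage cannot be told apart in these mice. Severe EAE mouse 5, with the longest list, had shares of 66.9 and 154, where the lowest mild EAE shares were 96.2 and 269. On the share scale 415 genes (4.51% of those tested) were lower and 0% higher without adjustment, and none passed after it.

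Shared stretches, as printed above, were then counted (a run of over 1 nt that 2 or more animals of the same group had in common). There were 7 in naïve cord (728 nt), 14 in mild EAE (1099 nt) and 1 in severe EAE (23 nt), and all 22 had their midpoint in coding sequence. The naïve stretches comprised 5 in Hnrnpa2b1 and 2 in Hnrnpdl. Those of mild EAE comprised 4 in Hnrnpa1, 2 in Hnrnpab, 2 in Hnrnpd and 6 in Hnrnpdl, with none in Hnrnpa2b1. Stretches of neighbouring exons that end at the facing exon edges can be parts of 1 spliced contig. The counts are therefore not necessarily of separate sites. In severe EAE, 3 of the 4 mice had at most 1 member footprint, so few could be shared.

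**Figure D3:**
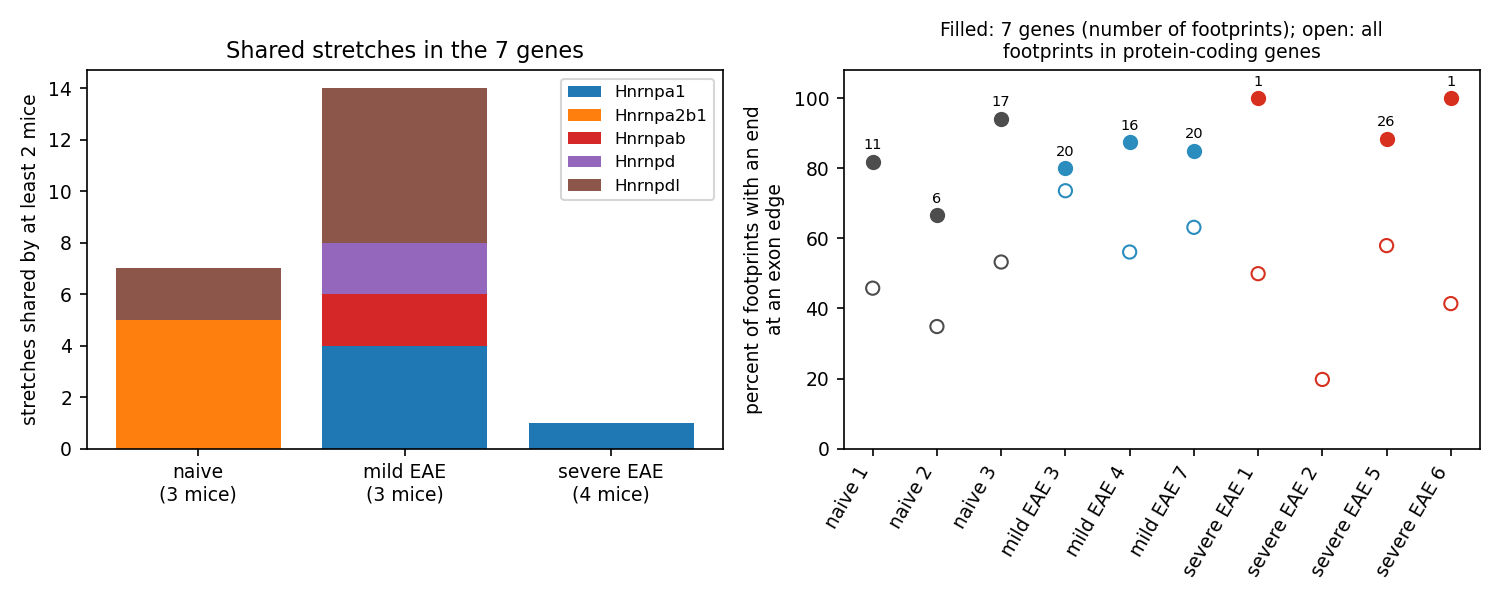
Left, stretches shared by at least 2 mice of each group (vertical axis, count) by gene. Right, percent of footprints with an end exactly at an annotated exon edge in each mouse, for the 7 genes (filled, with their number of footprints) and for all footprints in protein-coding genes (open). The shared stretches number 7, 14 and 1, and in the 9 mice with a member footprint the filled points lie above the open ones.

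Footprints of the family were mostly coding and often ended at splice junctions. By the position of the midpoint, 105 of the 118 were coding, 8 lay in a 3′ UTR, 3 in a 5′ UTR, 1 in an exon of other transcripts and 1 in an intron. The coding share was 89.0%, against 65.4% of the 117992 footprints in protein-coding genes. In 101 of the 118 (85.6%) at least 1 end coincided with an annotated exon edge, and in 15 both ends did. Over all protein-coding genes the share with such an end was 55.2%, ranging from 19.7% in severe EAE mouse 2 to 73.6% in mild EAE mouse 3. The members' share was above that of all genes in each of the 9 mice that had a member footprint, with 94.1% against 53.3% in naïve mouse 3, 80.0% against 73.6% in mild EAE mouse 3, and 88.5% against 57.9% in severe EAE mouse 5. Severe EAE mice 1 and 6 had only 1 member footprint each, and naïve mouse 2 had 6. The contigs behind the footprints were aligned with splicing allowed, so a contig that crosses a junction is reported as separate blocks that end at exon edges. The footprints were 17 to 217 nt long, with a median of 93 nt.

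Motifs tied to hnRNP A1 were counted in the direction of transcription. UAG occurred at 9.44 per 1000 nt of member footprints, against 12.0 per 1000 nt in the 112326 footprints that overlap a single gene, and AGGU at 5.90 against 4.15. UAGGG, which contains UAG, occurred at 0.635 against 0.576 per 1000 nt. These densities depended on length and were higher in longer footprints. In the 26097 footprints of 75 to 116 nt, around the members' median of 93 nt, UAG occurred at 9.08 per 1000 nt. AGGU occurred there at 3.58 and UAGGG at 0.408. In the 37521 footprints of 130 to 202 nt, UAG occurred at 13.3 per 1000 nt. The members' density pools short and long footprints, so neither window matches it. Whether the family was poorer in UAG than footprints of like length was not tested. The stretch of Hnrnpa2b1 exon 5 printed above held 3 UAG in 76 nt, and 33.7% of the 20324 footprints of 61 to 95 nt held any. The cassette exon 8 of Hnrnpa2b1 held 2 AGGU, 1 of which overlaps a UAG, where 36.8% of the 45349 footprints of 96 to 150 nt held an AGGU. The stretch of Hnrnpdl exon 5 held, near its 3′ end, an AGGU followed by a UAGGG, and 5.83% of the 37074 footprints of 88 to 137 nt held a UAGGG. The printed stretches of Hnrnpa2b1 exons 2 and 3, common to all naïve mice, held none of the 3 motifs, whereas the footprint of naïve mouse 3 over the whole of exon 3 held 2 UAG and 1 AGGU. These counts describe letters in the windows and were not tested.

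The sequence of several members is present elsewhere in the genome, which bears on where a contig could be placed. Each of the 106 member footprints of at least 30 nt was searched against the genome, counting other places that matched at least 90% of its length. For Hnrnpa1, 20 of 22 footprints had another place at 100% identity, up to 23 places at 90% or more, and for 16 of them such a place was itself footprinted in the same mouse. For Hnrnpa3, 6 of 7 had a place at 97% or more, and all 6 were also footprinted there in the same mouse. Hnrnpa2b1 had 20 of 21 footprints with a place at 90% or more but 2 at 97% and 0 at 100%, and 7 were footprinted there in the same mouse. Of 27 Hnrnpdl footprints, 21 had a place at 90%, 2 had one at 97%, and none was footprinted there. Hnrnpab had none among 12 and Hnrnpd 1 among 16. The copies are largely processed pseudogenes: 17 annotated ones aligned best to Hnrnpa1, of which 9 were footprinted, and 43 to Hnrnpa3, of which 16 were footprinted. Thus the footprints of Hnrnpa1 and Hnrnpa3 could stem from these copies, and those of Hnrnpab and Hnrnpd had almost no such place. With only footprints lacking another place at 97% identity, the Hnrnpa2b1 difference between EAE and naïve was -344 nt with an exact permutation p of 0.0167.

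**Figure D4:**
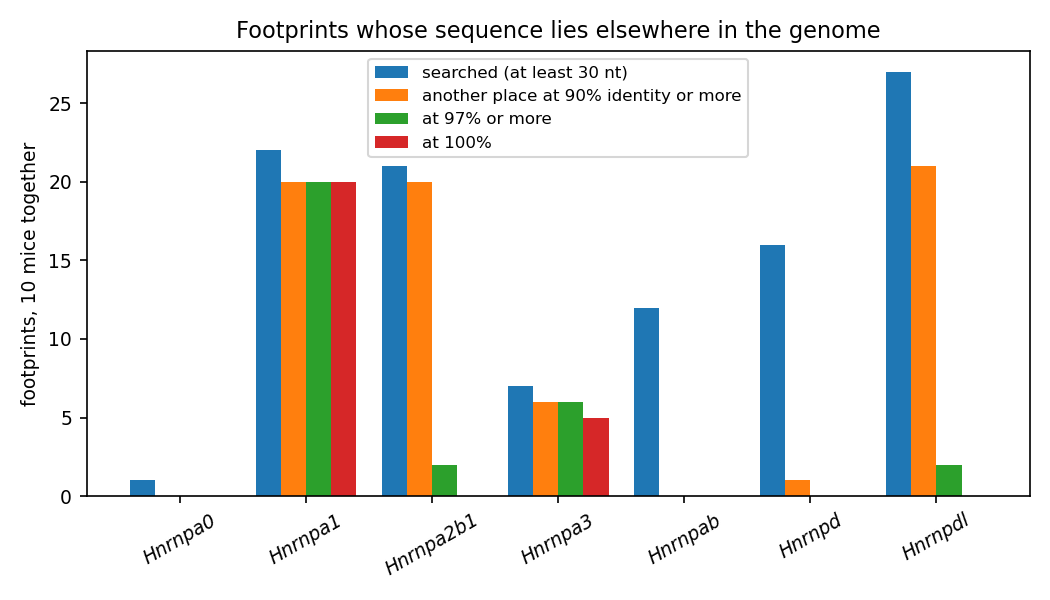
Number of footprints (vertical axis, all 10 mice) of each gene that were searched against the genome and that had another place at 90%, 97% or 100% identity or more. Hnrnpa1 (20 of 22) and Hnrnpa3 (5 of 7) had identical sequence elsewhere, and Hnrnpab, Hnrnpd, Hnrnpdl and Hnrnpa2b1 had none.

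Other RNA-binding protein genes were taken from lists for comparison. Of 4 close relatives, 1 was footprinted in all 3 naïve and 1 in all 3 mild EAE mice. Of 19 other hnRNP genes, 8 were footprinted in all 3 naïve and 5 in all 3 mild EAE mice, and of 13 SR proteins, 3 and 6. The median difference in covered nt between EAE and naïve was 4.14 nt over the 6 family members tested, -39.7 over the close relatives, 15.5 over the other hnRNP genes, 66.0 over the SR proteins and -20.2 over all genes tested. No gene of these RNA-binding protein lists outside the family had an unadjusted exact p under 0.05. Over all genes tested, 4.51% were lower in EAE at that threshold and 0.0109% higher. Of the 7 neuronal markers, 2 passed it, Syt1 and Rbfox3, both lower in EAE. The neuronal markers Nefm and Nefh were higher in EAE, by 9.24 and 159 nt, and did not pass it. Of genes outside the family footprinted in at least 6 mice, those whose share of the list followed that of the summed family most closely over the 10 mice were Hsp90ab1 (Pearson's r 0.988), Kmt2d (0.960) and Phlpp1 (0.956), chosen from 2515 candidates. These correlations are given as a description.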

How the data were processed

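The authors built contigs from every library's reads with rnaSPAdes and placed them on GRCm38 using minimap2 2.17, with splicing allowed. Sites also present in the matched input or in pooled IgG data were removed with bedtools, and overlapping sites were joined. Each deposited list gives chromosome, start and end of footprints, with no score, strand or read count. The inputs and IgG libraries were not analysed here. By the labels the antibody was clone 9H10, whereas the study's methods name 4B10.

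Genes, exons and transcripts were those of GENCODE release M 21, and sequence was read from GRCm38 patch 6. Covered nt were summed per gene span and mouse. The difference of group means was tested by exact permutation of the mice, two-sided, on every gene footprinted in at least 2 of 10 mice, with Benjamini-Hochberg adjustment. The reference transcript was the principal one with the longest coding sequence. The class of a footprint was that of its midpoint, coding sequence first, then UTR, then exons of other transcripts, then intron. A cassette exon lies wholly inside an intron of another protein-coding transcript. Other genome places were searched with blastn 2.17.0. The named genes are the 7 members, and other genes enter through fixed lists (close relatives, other hnRNP genes, SR proteins, markers of neurons, oligodendrocytes, astrocytes, and microglia and leukocytes). The members, the lists and the comparisons were chosen with earlier results of these data known. The alternatives were limits on footprint length, merging, other scales and spans, leaving out mice, a replicate block, Fisher's exact test and limma 3.58.1, and the restriction to footprints without another genome place and the share scale for severe against mild EAE were added after the data were seen. The tests and the counting of shared stretches were tested on simulated data. Computations used Python 3.11.15, numpy 2.4.6, scipy 1.17.1, pysam 0.24.0, R 4.3.3 and matplotlib 3.10.9. Precision is limited by the number of mice.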

Additional observations from a re-analysis of the deposited data

Results flagged for a closer look

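Severe EAE mouse 5 stood apart from the other mice of its group in 5 of the 7 genes and in their sum. It had 502 covered nt in Hnrnpa1, where the next severe EAE mouse had 23, 181 in Hnrnpa2b1, 549 in Hnrnpa3, 277 in Hnrnpab and 636 in Hnrnpdl, each against 0 in the next mouse, and 2460 against 90 over all 7 genes. Its list was also the longest of the 10, and the part of list length in these values was not tested. The study likewise treats mouse 5 as the outlier of its severe group. Among all 7 EAE mice, the 549 nt of Hnrnpa3 in severe EAE mouse 5 and the 130 nt of Hnrnpa0 in mild EAE mouse 7 also lay far from the rest. Of 15 groups examined, 8 met this criterion. A group with 0 nt in every mouse except the highest meets it by construction. The usual chance rate of about 5% of groups therefore does not apply, and the count is a description. The groups are not independent, since the same mice enter each.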

How the results depend on the processing

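The lower coverage of Hnrnpa2b1 and the higher coverage of Hnrnpab and Hnrnpd in EAE than in naïve cord kept their direction in all 24 alternatives each, with no adjusted p under 0.05 in any. Because Hnrnpab had 0 covered nt in every naïve mouse, its sign could not turn unless the span was extended. Its unchanged direction is therefore no support. Leaving out 1 mouse at a time, the difference was -515 to -283 nt for Hnrnpa2b1, 114 to 166 for Hnrnpab and 107 to 189 for Hnrnpd. With only footprints that overlap no other gene, Hnrnpab was at 60.4 nt in place of 142. Adjusted p-values of Hnrnpa2b1 ranged from 0.145 to 1, and unadjusted ones from 0.00833 to 0.475.

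The small differences of the other 3 genes had no stable sign. Hnrnpa1 ran from -124 to 122 nt on leaving out 1 mouse, Hnrnpa3 from -60.8 to 44.8, and Hnrnpdl from -114 to 93.5. Without severe EAE mice 1, 2 and 6, Hnrnpa1 was at 135 nt, Hnrnpdl at 255 and Hnrnpab at 249 (unadjusted exact permutation p 0.0286, adjusted 0.865). Signs also turned as shares of covered nt (5.72 for Hnrnpa1, -13.5 for Hnrnpa3, 1.24 for Hnrnpdl), per 1000000 mapped reads (-14.4 for Hnrnpa3), on the log2 scale (0.027 for Hnrnpa1, -2.33 for Hnrnpa3), as numbers of footprints (0.524 for Hnrnpa1, 0.429 for Hnrnpdl), with footprints merged (9.71 for Hnrnpdl), with the span extended (16.1 for Hnrnpdl), as percentages of mice footprinted (4.76 for Hnrnpa1, -38.1 for Hnrnpa3) and in limma (0.37 for Hnrnpa1, -2.12 for Hnrnpa3). The cause was not tested.

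With a replicate block that treats same-numbered mice as paired, Hnrnpa3 was at -84 nt, Hnrnpab at 49.7, Hnrnpd at 115 and Hnrnpa2b1 at -426 nt (for the last, exact permutation p 0.25, the smallest 3 pairs allow). Same-numbered mice are different animals and did not deviate together (correlations from -0.032 to 0.010 over 2519 genes). The number of all genes with an unadjusted p under 0.05, 416, became 0 with the block, 1234 per 1000000 mapped reads, 162 by Fisher's exact test, 726 by limma, 205 without severe EAE mice 1, 2 and 6, and 323 to 762 on leaving out 1 mouse, the highest without severe EAE mouse 5. None passed after adjustment.

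Shared stretches fell to 4 to 7 in naïve, 7 to 11 in mild EAE and 0 to 1 in severe EAE on leaving out 1 mouse, lowest without naïve mouse 1 or 3, mild EAE mouse 3, and severe EAE mouse 1 or 5. The severe stretch was lost (0) when 3 mice had to share it or footprints had at least 30 nt. By covered nt the coding share was 81.6%. The reads behind each footprint are not known, and the number of mice, 3 or 4 in a group, limits every test.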
